A study of Mus musculus with 2 samples.

Results

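The 10 genes described here are the transforming growth factor-β (TGF-β) ligand genes *Tgfb1*, *Tgfb2* and *Tgfb3*, the receptor genes *Tgfbr1*, *Tgfbr2* and *Tgfbr3*, the latent TGF-β binding protein gene *Ltbp1*, the signal transducer gene *Smad3*, the inhibitor gene *Smad7* and the TGF-β-induced matrix gene *Tgfbi*. They were chosen by name, out of 22337 gene symbols in the expression matrix. The cells came from heart allografts (HTx) taken at postoperative day (POD) 14. Donors were Bm12 mice, which carry an altered MHC class II I-A molecule, and recipients were C57BL/6 (B6) mice. In 3 hearts, labelled BM12 WT 1 to 3 and called IL-33+ here, the donor had an intact *Il33* gene, and in 3 hearts, labelled BM12 IL33 KO 4 to 6 and called IL-33- here, the donor was the Bm12 line crossed onto an *Il33*-deficient background. Both groups therefore share the Bm12 allele in the donor and an IL-33-sufficient B6 recipient, and cells that entered from the recipient carried an intact *Il33* gene in both. Each heart was digested, its cells were collected on a density gradient for immune cells, marked with a hashtag antibody, and pooled for 1 single-cell RNA-Seq (scRNA-Seq) run. The study asked how graft IL-33 changes the cells of the graft.

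TGF-β is made as a precursor that is cut but stays bound to its own propeptide. In this latent form it is tied to the matrix by latent TGF-β binding proteins, and integrins, proteases or thrombospondin release it. The free ligand binds the type II receptor (*Tgfbr2*), which recruits and phosphorylates the type I receptor (*Tgfbr1*). The co-receptor betaglycan (*Tgfbr3*) presents ligand, TGF-β2 above all. The active type I receptor phosphorylates SMAD2 and SMAD3, which enter the nucleus with SMAD4, and SMAD7, itself induced by the pathway, blocks the receptor. In injured heart the pathway is known for turning fibroblasts into matrix-producing cells, and in lymphocytes for restraining effector T cells and supporting regulatory T cells (Tregs) and tissue residency.

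In all, 4441 cells were measured in 14 annotated types, between 83 unconventional T cells and 931 NK cells. A cell held 1500 to 14977 unique molecular identifiers (UMIs, 1 per captured transcript), with a median of 3698, and a heart held 230 to 1666 cells and 908135 to 7012908 UMIs. No cell barcode was shared between hearts. Levels are in CPM, the share of a gene in a cell's UMIs scaled to a common total, as a mean first over the cells that a heart gave of a type and then over hearts (mean ± SD, n = 6 hearts unless stated). *Il33* transcripts, counted from their 3′ ends, did not separate the groups. Annotated fibroblasts held 7, 0 and 121 *Il33* UMIs in the IL-33+ hearts 1, 2 and 3 (24.3, 0 and 50.7 CPM) and 9, 3 and 5 in the IL-33- hearts 4, 5 and 6 (32.6, 73.8 and 16.1 CPM). A tag outside the deleted part of the gene checks nothing, and which part is deleted is not given in the sources used here, so IL-33+ and IL-33- stand for the hearts' labels throughout.

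The annotation was set beside lists of defining markers. T cell markers summed to 3116 to 3656 CPM per heart in Tregs and 13.3 to 37.2 CPM in monocytes, and fibroblast markers to between 30670 and 59020 CPM in annotated fibroblasts. Cells annotated unconventional T cells matched their name only in part, with 2485 to 4941 CPM of macrophage markers and 466 to 1765 CPM of T cell markers. They were the deepest type, at a median of 10175 UMIs per cell. Markers of 2 lineages (at least 2 T or B cell and at least 2 macrophage or fibroblast markers) were found in 65 of these 83 cells. Whether they were doublets was not tested. Of the 204 cells annotated monocyte-derived DCs (Mo-DCs), 42 held at least 4 of 8 neutrophil markers. A *Foxp3* UMI was seen in 51 of 263 annotated Tregs, and 16 of the 263 had UMIs of 3 or more of the 7 ILC2 (type 2 innate lymphoid cell) markers. Values for these types are values of the annotated cells, whatever they are.

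Promoters were looked up because the ligand genes differed in the cells that expressed them. The RefSeq promoter table (GRCm38.p6) matched 7 of the 10 genes. The 250 bases before the start of *Tgfb1*, expressed in every annotated type, and of *Tgfb2*, with 91.0% of its UMIs in fibroblasts, are shown 5′ to 3′ on the strand of the gene. Capitals mark 3 motifs on either strand: the TATA box (TATAAA), the GC box (GGGCGG, reverse complement CCGCCC) and the SMAD box (CAGAC, reverse complement GTCTG). None of the marked motifs overlap.
Tgfb1, chr7:25686752-25687001, plus strand: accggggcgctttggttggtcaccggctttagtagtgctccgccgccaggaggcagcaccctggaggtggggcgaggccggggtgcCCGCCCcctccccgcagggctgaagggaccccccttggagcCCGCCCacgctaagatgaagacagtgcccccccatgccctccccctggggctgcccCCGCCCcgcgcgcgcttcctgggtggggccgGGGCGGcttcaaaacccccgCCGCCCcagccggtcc
Tgfb2, chr1:186705990-186706239, minus strand: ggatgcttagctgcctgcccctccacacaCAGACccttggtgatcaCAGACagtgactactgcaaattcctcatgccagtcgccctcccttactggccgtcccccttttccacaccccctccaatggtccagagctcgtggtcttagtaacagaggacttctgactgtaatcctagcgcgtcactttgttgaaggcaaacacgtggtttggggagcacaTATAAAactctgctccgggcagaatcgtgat

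The *Tgfb1* window held 5 GC boxes, no TATA box and no SMAD box, and 75.2% of its bases were G or C, a share above that of 96.1% of the 32851 promoter windows of the same length. The *Tgfb2* window held 1 TATA box and 2 SMAD boxes and no GC box, at 53.6% G or C, against a median of 52.4% over all windows. A TATA box was found in 12.4% of all windows, a GC box in 32.7% and a SMAD box in 42.2%. Among the other windows of these genes, GC boxes were found in that of *Smad3* (2), the upstream window of *Tgfbr1* (2) and that of *Tgfbi* (1). The window of *Tgfbr2* and both windows of *Ltbp1* had no GC box. SMAD boxes were found in both windows of *Ltbp1* (1 and 2), in those of *Tgfbi* (2) and *Tgfbr2* (1) and in the downstream window of *Tgfbr1* (1). Among the windows of these genes only that of *Tgfb2* had a TATA box, so *Ltbp1*, also found mainly in fibroblasts, lacked it. A match describes the letters in the window and not a bound factor.

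*Tgfb1*, the main ligand of leukocytes, was the most widespread of the ligands. The gene lies at chr7:25687002-25705077 on the plus strand (GRCm38, as are all positions here). It had 13630 UMIs in 3364 cells (75.8% of all cells), of which NK cells gave 25.6% and NKT cells 18.1%. In NK cells the IL-33+ hearts 1, 2 and 3 had 1566, 1477 and 1340 CPM and the IL-33- hearts 4, 5 and 6 had 1418, 1111 and 1208 CPM (1353 ± 170.1). All 6 hearts were thus above 1100 CPM, and NKT cells lay in the same range, at 1250 ± 196 CPM. The exact sign-flip permutation test over hearts did not separate these 2 types (log2 difference 0.12 ± 0.16 SD, higher in 4 of 6 hearts, two-sided p = 0.156, Benjamini-Hochberg adjusted over 10 genes 0.174). Here and for the other genes, the highest and the next type were picked from the same levels that the test compares, so its p is no independent evidence of the order. Monocytes followed at 812 ± 218.5 CPM, from 403 in IL-33+ heart 2, with 5 monocytes, to 1024 in heart 3.

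Among T cells, *Tgfb1* ran from 759 ± 151 CPM in Tregs and 720 ± 115 CPM in effector memory and effector cells (Tem/eff) over 512 ± 132 CPM in tissue-resident memory-like cells (Trm-like) and 499 ± 137 CPM in central memory cells (Tcm) to 174 ± 69.0 CPM in naive cells (Tn). Tregs exceeded Tn in 6 of 6 hearts, by 2.12 ± 0.37 (SD) on the log2(CPM + 10) scale, and differed from Tem/eff by 0.07 ± 0.14. These comparisons were picked after the levels were seen, so no test is given. A *Tgfb1* UMI was found in 89.0% of NK cells and 31.3% of Tn, and in 78.8% and 20.1% after every cell had been thinned to 1500 UMIs, so NK cells stayed above Tn at equal depth. Fibroblasts were near the bottom as well, at 177 ± 34.2 CPM.

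**Figure D1:**
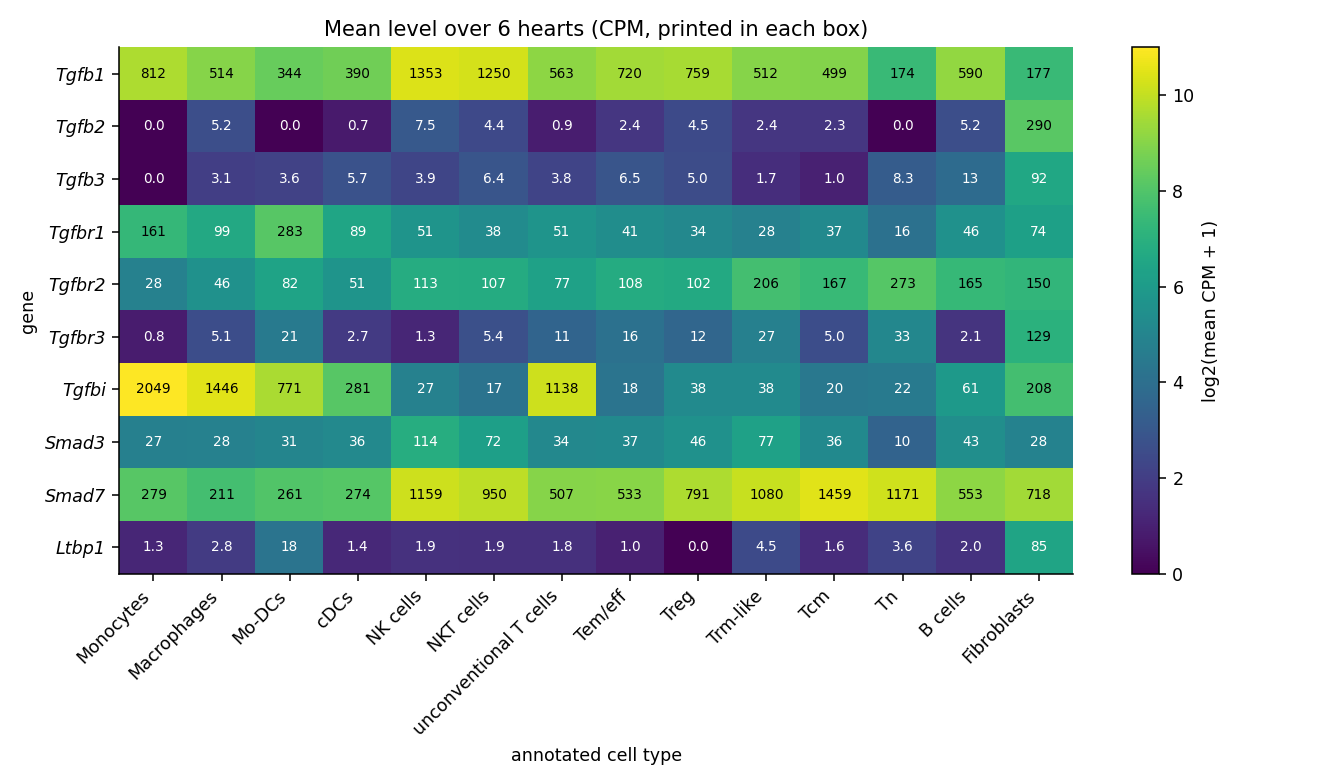
Mean level of each gene (rows) in each annotated type (columns), averaged over 6 hearts, with the CPM printed in each box and the colour on a log2(CPM + 1) scale. *Tgfb1* and *Smad7* were found in every type, *Tgfb2*, *Tgfb3*, *Tgfbr3* and *Ltbp1* peaked in fibroblasts, and *Tgfbi* in monocytes (2049 CPM), macrophages (1446 CPM) and cells annotated unconventional T cells (1138 CPM).

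*Tgfb2*, the ligand tied to mesenchymal and endothelial cells, was a fibroblast transcript in these grafts (chr1:186622792-186705989, minus strand). Annotated fibroblasts, 375 of the 4441 cells (270 of them from IL-33+ heart 3), held 538 of the 591 *Tgfb2* UMIs (91.0%, 355 in that heart). Their level was 131, 665 and 228 CPM in IL-33+ hearts 1, 2 and 3 and 163, 212 and 344 CPM in IL-33- hearts 4, 5 and 6. The highest value rested on 6 fibroblasts, and the groups overlapped. NK cells came next at 7.51 ± 5.93 CPM, lower than fibroblasts in 6 of 6 hearts (log2 difference 3.95 ± 0.61 SD, exact sign-flip permutation p = 0.0312, the smallest that 6 hearts allow, adjusted 0.104). Monocytes, Mo-DCs and Tn had no *Tgfb2* UMI.

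*Tgfb3*, the least abundant ligand with 264 UMIs (chr12:86056745-86079041, minus strand), also peaked in fibroblasts, at 92.05 ± 102 CPM, but 37.5% of its UMIs (95% Wilson interval 31.9 to 43.5, counting error only) lay in other types. For *Tgfb2* that share was 8.97% (6.92 to 11.5), and for *Ltbp1* 11.5% (8.60 to 15.25). It was 31.35% (27.4 to 35.6) for *Tgfbr3*. Of the fibroblast markers, *Col1a1* had 12.4%, *Col1a2* 8.78% and *Dcn* 6.72% of their UMIs outside annotated fibroblasts, and of the endothelial markers *Egfl7* had 22.1%, *Cdh5* 19.5% and *Pecam1* 64.4%. These shares pool the UMIs of all hearts, and the part of free RNA in them was not tested. The *Tgfb3* UMIs outside fibroblasts were thinly spread, with 16 in macrophages, 14 each in Tem/eff and NKT cells, 11 in conventional DCs (cDCs) and none in monocytes.

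*Ltbp1*, which anchors latent TGF-β in the matrix, (chr17:75005568-75392512, plus strand) had 356 UMIs, 315 of them in fibroblasts. Its fibroblast level was 81.9, 44.6 and 141 CPM in the IL-33+ hearts and 138, 0 and 105 CPM in the IL-33- hearts. The heart at 0 had 4 fibroblasts, and a single UMI in IL-33+ heart 2 came from 6. A UMI was seen in 42.1% of fibroblasts (16.03% after thinning) and in at most 1.87% of the cells of any other type, and no Treg held one. The other binding proteins peaked in the same cells, with *Ltbp4* at 639 ± 136 CPM, *Ltbp3* at 253 ± 88.4 CPM and *Ltbp2* at 38.2 ± 17.8 CPM, as did *Fbn1*, the fibrillin they bind (591 ± 179 CPM). The membrane anchors of latent TGF-β lay elsewhere or in more than 1 type. *Lrrc32* (GARP) was at 82.6 ± 35.5 CPM in fibroblasts and 78.9 ± 29.8 CPM in Tregs, and *Nrros* at 279 ± 54.2 CPM in monocytes and 162 ± 38.9 CPM in macrophages. Of the activating integrin chains, *Itgav* had its highest means in Tregs (580.1 ± 134 CPM) and Tem/eff (389 ± 54.0 CPM), with *Itgb8* at 36.9 ± 10.95 and 30.2 ± 16.4 CPM in the same types. The activator *Thbs1* was at 2160 ± 940 CPM in monocytes and 1002 ± 1246 CPM in cells annotated unconventional T cells. The convertase *Furin*, which cuts the precursor, was at 476 ± 231 CPM in Mo-DCs and 422 ± 238 CPM in Tregs, within the spread of each.

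The signaling receptors were distributed in opposite ways between naive or memory T cells and myeloid cells, but not in fibroblasts. *Tgfbr2* (chr9:116084293-116175360, minus strand, 2280 UMIs, 33.8% of cells) was highest in T cells with a naive or memory annotation, at 273 ± 79.4 CPM in Tn, 206 ± 19.7 CPM in Trm-like and 167 ± 50.05 CPM in Tcm. B cells (165 ± 90.9 CPM) and fibroblasts (150 ± 48.3 CPM) lay within the spread of Tcm. Fibroblasts gave 20.75% of the UMIs, the largest share of any type. Tn had 260, 287 and 359 CPM in the IL-33+ hearts and 336, 132 and 264 CPM in the IL-33- hearts, so that a single heart, with 15 naive cells, fell below the others. Neighbours in this order did not differ beyond their spread (Tn over Trm-like 0.33 ± 0.44 on the log2 scale, higher in 5 of 6 hearts, exact sign-flip permutation p = 0.156, adjusted 0.174). At the low end, macrophages had 46.5 ± 12.8 CPM and monocytes 27.6 ± 26.3 CPM. The mean of Tn, Tcm and Trm-like exceeded that of macrophages, monocytes and cDCs by 2.25 ± 0.34 on the log2 scale, in 6 of 6 hearts, a grouping chosen after the levels were seen. Tregs were lower than Tn, at 102 ± 25.1 CPM.

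*Tgfbr1* (chr4:47353222-47414931, plus strand, 1294 UMIs, 20.5% of cells) was highest in myeloid cells. Mo-DCs had 283 ± 238 CPM, but this mean rested on 80 UMIs and ran from 41.0 CPM in IL-33- heart 6 to 714 CPM in IL-33+ heart 2, where 4 Mo-DCs held 7 UMIs. Monocytes had 141, 152 and 262 CPM in the IL-33+ hearts and 155, 121 and 134 CPM in the IL-33- hearts, and macrophages 98.8 ± 25.5 CPM. Mo-DCs and monocytes could not be ordered (log2 difference 0.38 ± 1.41 SD, exact sign-flip permutation p = 0.531). Fibroblasts followed macrophages at 74.4 ± 45.7 CPM. Tn, which led for *Tgfbr2*, came last with 16.1 ± 14.0 CPM. Over the 14 types, the levels of the 2 receptors had a Pearson r of -0.81. This and the other correlations over types describe 14 points that share the same 6 hearts and 1 library, with no test. *Tgfbr3* (chr5:107106570-107289629, minus strand, 488 UMIs) was highest in annotated fibroblasts, at 129 ± 54.8 CPM (203, 135 and 146 CPM in the IL-33+ hearts, 142, 35.7 and 111 CPM in the IL-33- hearts). Outside fibroblasts its UMIs fell mainly on T cells, with 30 in Tem/eff, 28 in Trm-like and 25 in Tn. In NK cells, 9 UMIs were found in 931 cells.

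**Figure D2:**
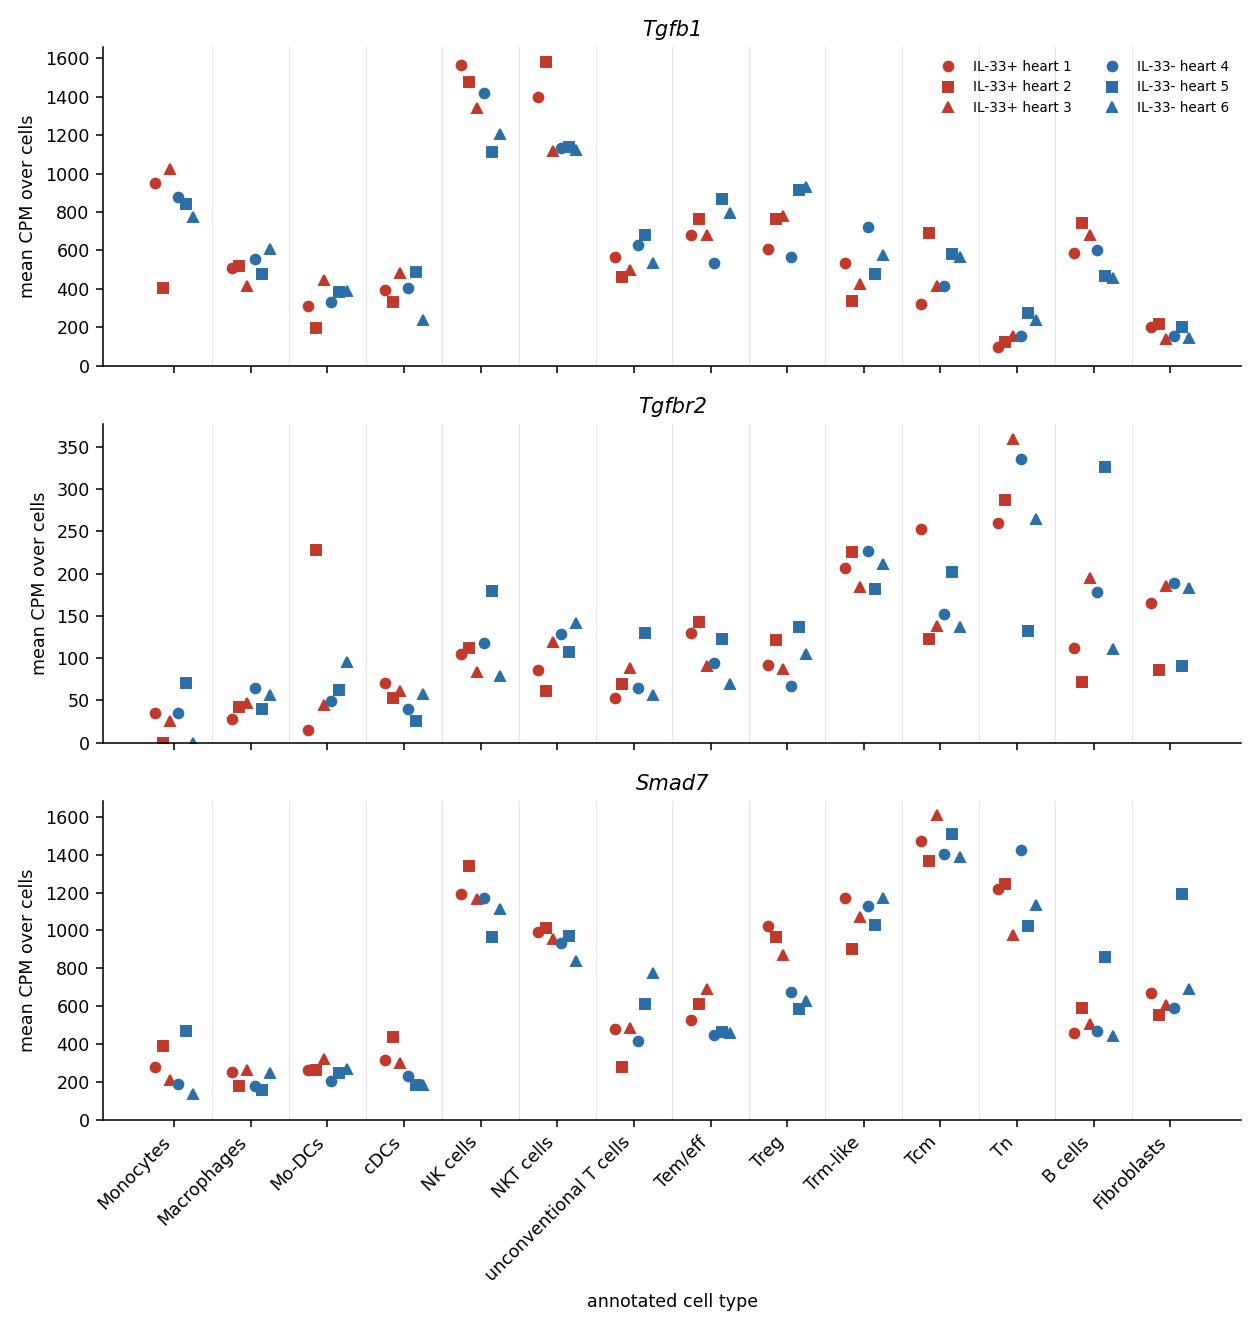
*Tgfb1*, *Tgfbr2* and *Smad7* in each heart (mean CPM of a type's cells, linear axes from 0), with the types in columns, red symbols for hearts labelled IL-33+ and blue symbols for hearts labelled IL-33-. NK and NKT cells lead for *Tgfb1* with every heart above 1100 CPM, Tn and Trm-like for *Tgfbr2*, and in Tregs the 3 IL-33+ hearts lie above the 3 IL-33- hearts for *Smad7*.

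*Smad3*, which carries the signal to the nucleus, was highest in NK cells (chr9:63646767-63757994, minus strand). Their levels were 102, 118 and 105 CPM in the IL-33+ hearts and 121, 111 and 126 CPM in the IL-33- hearts, a narrow range for a gene with 978 UMIs in all. Trm-like cells (76.7 ± 15.9 CPM) and NKT cells (72.4 ± 12.8 CPM) followed, and Tn were lowest (10.47 ± 9.23 CPM). NK cells exceeded Trm-like cells in 5 of 6 hearts (log2 difference 0.53 ± 0.33 SD, exact sign-flip permutation p = 0.0625, adjusted 0.104). Tn had the highest mean of *Tgfbr2* and the lowest of *Smad3* among the 14 types.

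*Smad7*, the inhibitor that the pathway itself induces, was present in 82.0% of cells with 13947 UMIs. Tcm had 1475, 1366 and 1609 CPM in the IL-33+ hearts and 1402, 1512 and 1389 CPM in the IL-33- hearts. Tn (1171 ± 163 CPM), NK cells (1159 ± 122 CPM) and Trm-like cells (1080 ± 103 CPM) were next. Tcm exceeded Tn in 5 of 6 hearts (log2 difference 0.32 ± 0.27 SD, exact sign-flip permutation p = 0.0625, adjusted 0.104). Tregs had 791 ± 186 CPM, below Tcm in 6 of 6 hearts, and myeloid types were lowest, from 211.5 ± 46.4 CPM in macrophages to 279 ± 129 CPM in monocytes. *Pmepa1*, a feedback inhibitor, was highest in Tcm (1192 ± 127 CPM) and NK cells (1184 ± 170.1 CPM). The co-repressor *Ski* was at 604 ± 120 CPM in Trm-like cells and 578 ± 63.2 CPM in NK cells, and *Skil* at 817 ± 261 CPM in Mo-DCs and 759.5 ± 208 CPM in Tregs. In each case the leading types lay within each other's spread. Over the 14 types *Smad7* had an r of 0.83 with *Tgfbr2* and of -0.83 with *Tgfbi*.

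*Tgfbi*, a secreted matrix protein named for its induction by TGF-β, marked the monocyte and macrophage lineage (chr13:56609523-56639562, plus strand). Monocytes had 2190, 1405 and 2218 CPM in the IL-33+ hearts and 2568, 1688 and 2227 CPM in the IL-33- hearts, and every monocyte held a UMI. Macrophages had 2001, 1450 and 1373 CPM and 1484, 1162 and 1208 CPM, and gave 51.0% of its 9852 UMIs. Monocytes were higher than macrophages in 5 of 6 hearts (log2 difference 0.50 ± 0.37 SD, exact sign-flip permutation p = 0.0625, adjusted 0.104). The 83 cells annotated unconventional T cells had 1138 ± 325 CPM, close to macrophages and far from the other T cells (18.0 to 37.7 CPM). The macrophage and T cell markers of these 83 cells are given above. In T, NK and NKT cells 7.41% to 9.12% of cells held a *Tgfbi* UMI. Macrophage markers were found in those types as well, at 83.8 to 365 CPM in sum, and the part of free macrophage RNA in these UMIs was not tested.

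The annotated fibroblasts were divided by markers, since they could hold endothelial cells. At least 3 fibroblast markers, and more than endothelial ones, were found in 309 cells, and the reverse in 58 cells, with 8 left undivided. Both sets had similar depth, at medians of 5850 and 5754 UMIs per cell. A *Tgfb2* UMI was found in 53.7% (95% Wilson interval 48.1 to 59.2) of fibroblast-marker cells and 27.6% (17.8 to 40.2) of endothelial-marker cells, at 269 and 52.5 CPM over cells. *Tgfb3* was found in 30.7% (25.9 to 36.1) and 8.62% (3.74 to 18.6), and *Ltbp1* in 46.6% (41.1 to 52.2) and 22.4% (13.6 to 34.7). *Tgfbr3* was found in 52.75% (47.2 to 58.2) and 27.6% (17.8 to 40.2). *Tgfb1* went the other way, at 43.4% (37.95 to 48.9) and 60.3% (47.5 to 71.9), with overlapping intervals. *Smad7* was similar in both, at 81.9% (77.2 to 85.8) and 89.7% (79.2 to 95.2). Of the endothelial-marker cells, 43 came from IL-33+ heart 3, and of the fibroblast-marker cells 222, so these shares describe mainly that heart and are not compared over hearts.

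**Figure D3:**
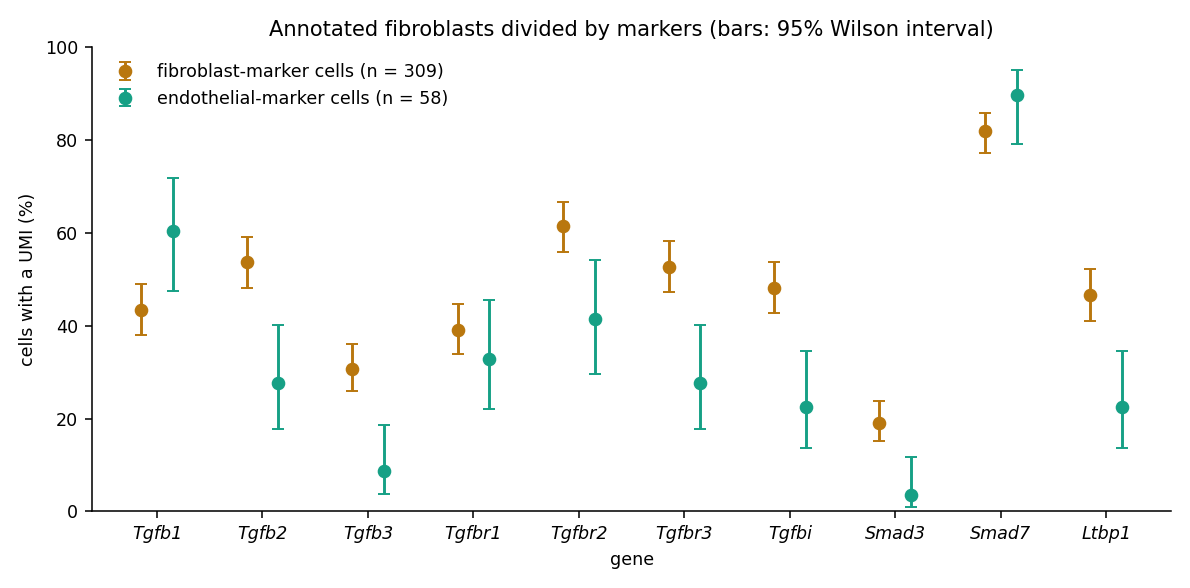
Share of cells with a UMI of each gene (percent, y axis) in the 309 fibroblast-marker cells and the 58 endothelial-marker cells among annotated fibroblasts, with 95% Wilson intervals that cover counting error only. The intervals of *Tgfb2*, *Tgfb3*, *Tgfbr3*, *Tgfbi*, *Smad3*, *Ltbp1* and *Tgfbr2* are higher for fibroblast-marker cells and do not overlap, while those of *Tgfb1*, *Tgfbr1* and *Smad7* do.

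For each gene, the 3 genes whose levels over the 14 types were most alike were found among 10072 genes with at least 100 UMIs, by Pearson r of the mean log2(CPM + 10). For *Tgfb2* these were *Antxr1* (0.994), *Gnao1* (0.994) and *Mxra7* (0.991), and for *Ltbp1* they were *Tek* (0.992), *Scarf2* (0.990) and *Vgll3* (0.989). *Tgfb3* went with *Slit3* (0.974), *Cdc42bpa* (0.962) and *Thbs4* (0.961), and *Tgfbr3* with *Hmcn1* (0.917), *Wif1* (0.904) and *Gbp6* (0.904). *Tgfbi* went with *Ifi207* (0.986), *Tns3* (0.984) and *Pid1* (0.981). *Tgfbr1* was most like *Tfe3* (0.964), *Oas2* (0.921) and *Mir22hg* (0.919), and *Tgfbr2* most like *Tnrc6c* (0.931), *S1pr1* (0.928), the receptor that guides lymphocytes out of tissue, and *Ldb1* (0.921). *Smad7* was most like *Jak1* (0.977), the cytokine receptor kinase, *Pgm2l1* (0.959) and *Zdhhc20* (0.956), and *Smad3* most like *Chst12* (0.934), *Muc1* (0.899) and *Tfip11* (0.880). *Tgfb1* had looser companions, *Hist1h1c* (0.874), *Sharpin* (0.862) and *Sec11c* (0.861). Among the 10 genes, *Tgfb2* had an r of 0.95 with *Ltbp1* and 0.94 with *Tgfb3*, and *Tgfb1* one of 0.76 with *Smad3*. The r values of *Tgfb2*, *Tgfb3* and *Ltbp1* rest mainly on the single fibroblast point. Their mean log2(CPM + 10) was 8.02, 6.165 and 6.15 in fibroblasts and at most 4.07, 4.28 and 4.00 in any other type.

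The second question was whether the label of the graft went with the level of these genes within a type. No pair of gene and type passed the threshold of 0.05 after adjustment. Of 140 pairs, 98 passed the filter on low UMIs and were fitted with limma over all genes of the type (n = 3 hearts per group). After Benjamini-Hochberg adjustment none reached 0.05, the lowest adjusted p being 0.435, against 0.00884% of all gene and type pairs (10 of 113173). Before adjustment, 8 pairs had a p of at most 0.05 (8.16%), against 4.71% of all pairs tested. Of these, 6 were higher and 2 lower in IL-33+ hearts. Without IL-33+ heart 2, which held the fewest cells, the count was 5. Groups did not overlap, with all IL-33+ hearts higher, in 5 pairs (5.10%, against 4.87% of all pairs), and with all lower in 3 (3.06%, against 4.94%). The median log2 fold change over the 98 pairs was 0.01, and that over all pairs -0.00056. The intervals were wide where cells were few, so the fits do not show that levels were alike.

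By type, 2 of the 7 genes tested in cDCs had an unadjusted p of 0.05 or less, against 6.79% of all genes tested there. A single gene did so in fibroblasts (1 of 10, against 3.16% of all genes), NK cells (1 of 7, against 5.82%), Tem/eff (1 of 8, against 4.41%), Tn (1 of 6, against 4.92%), Tregs (1 of 7, against 5.1%) and Trm-like cells (1 of 7, against 5.05%). None did in the other 7 types. All genes gave 4.18% in B cells, 4.04% in macrophages, 3.49% in Mo-DCs, 4.87% in monocytes, 4.88% in NKT cells, 4.87% in Tcm and 4.54% in cells annotated unconventional T cells.

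**Figure D4:**
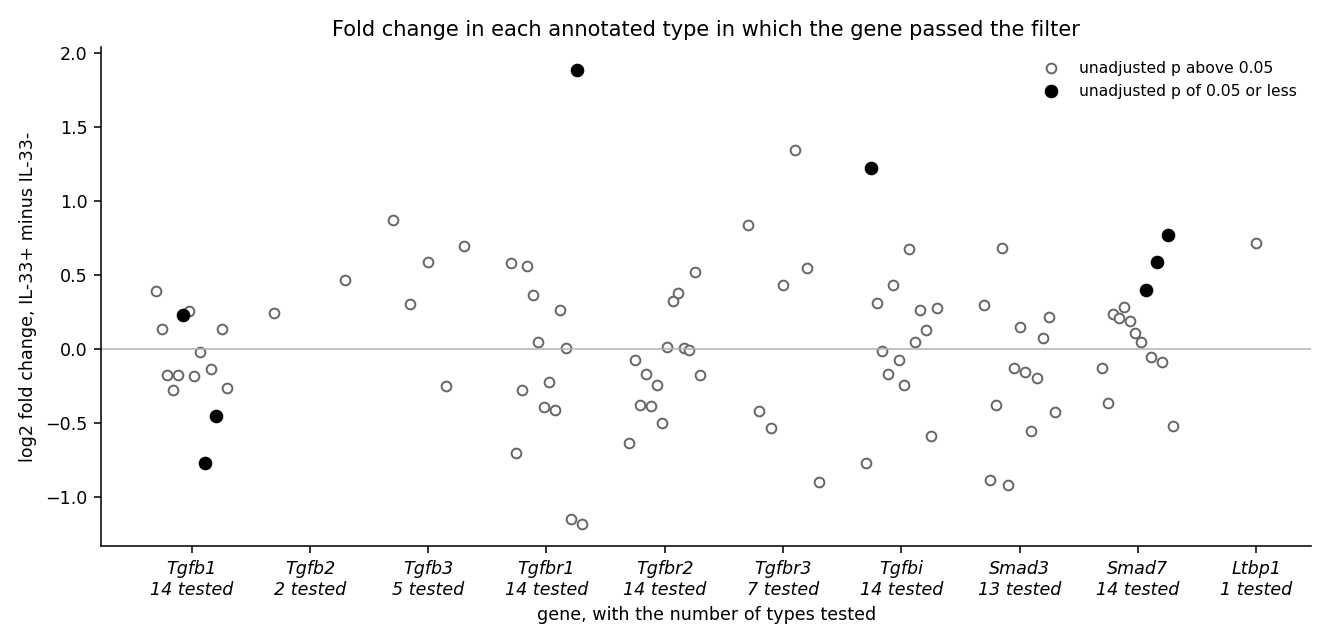
Log2 fold change between hearts labelled IL-33+ and IL-33- (y axis, positive where IL-33+ is higher) for each gene, with 1 point per annotated type in which the gene was tested. The 8 filled points have an unadjusted limma p of 0.05 or less, and none of the 98 points passed after adjustment.

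*Smad7* accounted for 3 of the 8 pairs, each higher in IL-33+ hearts without overlap. In Tregs it was at 1022, 968 and 870 CPM in the IL-33+ hearts and 675, 587 and 627 CPM in the IL-33- hearts. The log2 fold change was 0.59 (SE 0.20, limma with Benjamini-Hochberg adjustment, adjusted p = 0.823), and the exact permutation p of 0.1 is the smallest that 3 against 3 hearts allow. NK cell markers also differed, at 436 to 812 CPM per heart in IL-33+ Tregs and 258 to 365 CPM in IL-33- Tregs. Markers of Tregs and ILC2 overlapped between the groups, and the part of these cells in the difference was not tested. In Tregs with a *Foxp3* UMI (51 cells) the fold change was 0.28, and without the 16 cells with ILC2 markers 0.60.

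In Tem/eff *Smad7* was at 527, 612 and 688 CPM in IL-33+ hearts and 447, 463 and 460.2 CPM in IL-33- hearts (log2 fold change 0.40, SE 0.15, limma adjusted p 0.998). In cDCs it was at 315, 437 and 297 CPM against 231, 181 and 185 CPM (0.77, SE 0.26, limma adjusted p 0.615). The IL-33+ hearts were higher in all 3 types, but *Smad7* overlapped between the groups in the other 11 and was lower in 5 of 14, the lowest fold change being -0.52.

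*Tgfbr1* in cDCs had the lowest p of the 98 pairs. The IL-33+ hearts had 128, 136 and 141 CPM and the IL-33- hearts 102, 14.6 and 11.9 CPM. The IL-33+ hearts lay close together, and of the IL-33- hearts only heart 4 came near them, while heart 5 held 1 UMI in 9 cells and heart 6 held 3 in 26. The log2 fold change was 1.88 (SE 0.54, limma with Benjamini-Hochberg adjustment, adjusted p = 0.435). Leaving out hearts with under 10 cDCs gave 1.54 (adjusted 0.388). Within cDCs, conventional DC markers were lower in IL-33+ hearts (1057 to 1623 against 1799 to 3270 CPM), and T cell markers (71.6 to 146 against 25.0 to 61.4 CPM) and fibroblast markers (525 to 617 against 392.2 to 476 CPM) were higher. These markers moved with both cDC results, and their part was not tested.

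*Tgfb1* gave 3 pairs that differed in sign. In NK cells the hearts listed above gave a log2 fold change of 0.23 (SE 0.11, limma adjusted p 0.846), with overlap. In NK cells monocyte markers were lower in IL-33+ hearts (469 to 530 against 738 to 753 CPM) and cardiomyocyte markers higher (7.56 to 11.04 against 0 to 5.61 CPM). In Tn the values were 97.4, 121 and 156 CPM in IL-33+ and 154, 275 and 239 CPM in IL-33- hearts (fold change -0.77, SE 0.37, adjusted 0.952), and they rested on 5 to 40 UMIs per heart. T cell markers moved in Tn, at 1982 to 2138 against 1617 to 1933 CPM, as did neutrophil markers, at 29.3 to 106 against 0 to 27.8 CPM. In Trm-like cells they were 534, 337 and 424 CPM against 721, 478 and 577 CPM (fold change -0.45, SE 0.20, adjusted 0.923), beside NK cell markers of 1599 to 3206 against 691 to 1329 CPM. The part of these markers was not tested. All 3 pairs overlapped between the groups. *Tgfbi* in annotated fibroblasts was at 188, 416 and 202 CPM in IL-33+ and 188, 19.1 and 235 CPM in IL-33- hearts, with a log2 fold change of 1.22 (SE 0.53, limma adjusted p 0.998). Hearts 2 and 5, with 6 and 4 fibroblasts, made this difference, and without them it was -0.11.

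**Figure D5:**
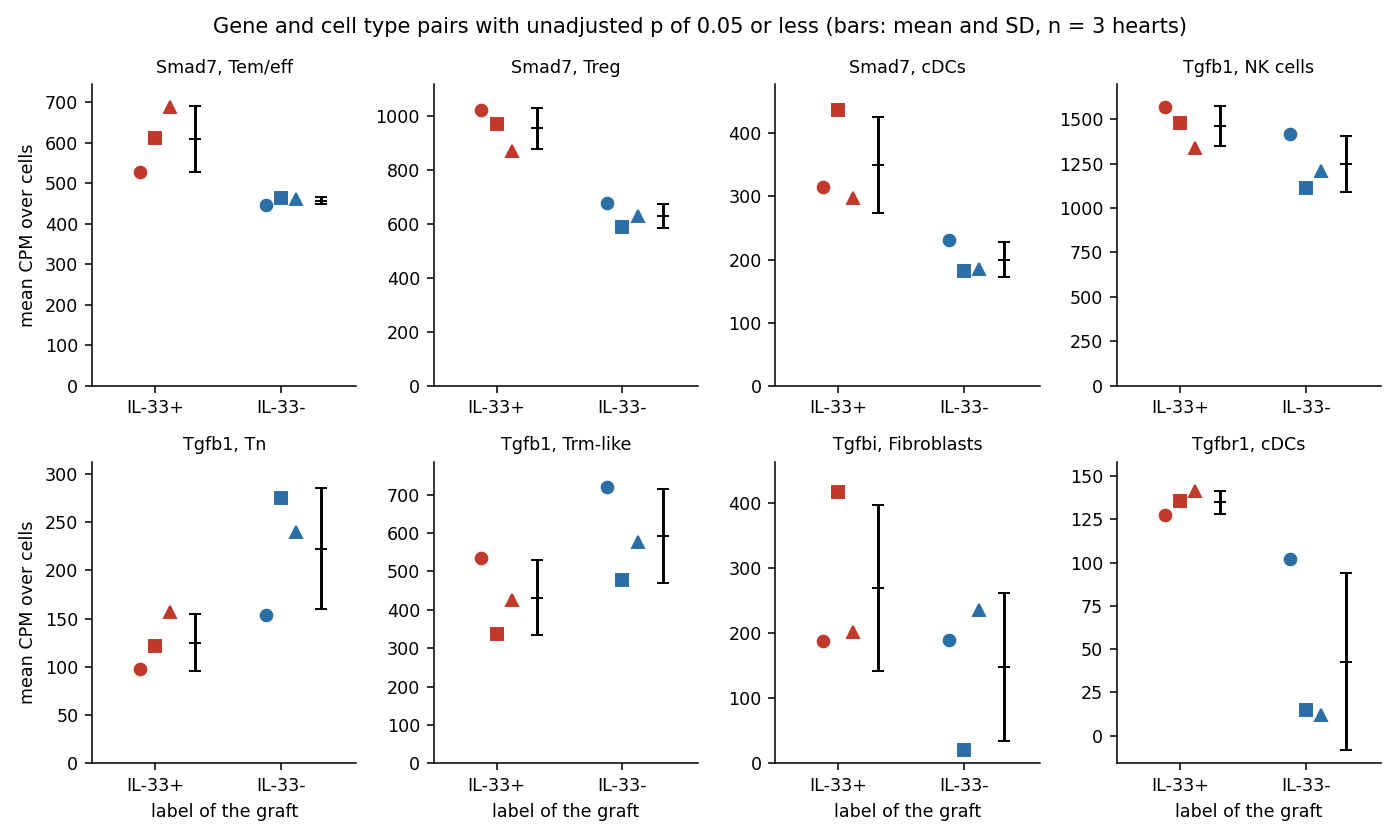
Mean CPM over cells in each heart (points) for the 8 gene and type pairs with an unadjusted limma p of 0.05 or less, red for hearts labelled IL-33+ and blue for hearts labelled IL-33-, with the mean ± SD of 3 hearts in black. The groups do not overlap for *Smad7* in Tem/eff, Tregs and cDCs and for *Tgfbr1* in cDCs, and overlap in the other 4.

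None of the remaining pairs had an unadjusted p of 0.05 or less. *Tgfb3* in NKT cells was higher in all IL-33+ hearts (13.7, 9.66 and 5.63 against 5.29, 0 and 4.10 CPM), from 14 UMIs in all, with a log2 fold change of 0.59 (SE 0.38, limma adjusted p 0.924), beside NK cell markers of 7667 to 8572 against 4147 to 7179 CPM. In fibroblasts, *Tgfb2* had a log2 fold change of 0.24 (SE 0.42), *Tgfb3* one of 0.87 (SE 0.65), *Tgfbr3* one of 0.84 (SE 0.47) and *Ltbp1* one of 0.72 (SE 0.70), each under 2 SE. *Tgfbr2* was tested in 14 types and ranged from -0.63 to 0.52, with overlap in each. *Smad3* was lower in all IL-33+ hearts in macrophages (19.7, 20.4 and 28.0 against 34.4, 31.3 and 31.3 CPM) and in Tem/eff (27.5, 25.3 and 26.3 against 33.0, 76.6 and 30.9 CPM), with fold changes of -0.38 (SE 0.42) and -0.55 (SE 0.35). *Tgfb1* in Tregs was at 607, 761 and 778 CPM against 565, 912 and 931 CPM, a fold change of -0.14 (SE 0.22).

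When the log2 levels were averaged over the 10 types with at least 5 cells in every heart, again no gene passed after adjustment. This rule left out fibroblasts, B cells, Mo-DCs and cells annotated unconventional T cells. The type with 91.0% of the *Tgfb2* and 62.5% of the *Tgfb3* UMIs was therefore not in the mean. *Smad7* was higher in all IL-33+ hearts (9.483, 9.516 and 9.414 against 9.255, 9.245 and 9.168 on the log2(CPM + 10) scale), with a difference of 0.25 (SE 0.07, limma with Benjamini-Hochberg adjustment, adjusted p = 0.996). *Tgfb3* differed by 0.27 (SE 0.12, limma with Benjamini-Hochberg adjustment, adjusted p = 0.996), with overlap. *Tgfb2* was higher in all IL-33+ hearts as well, by 0.18 (SE 0.095, limma with Benjamini-Hochberg adjustment, adjusted p = 0.996). *Smad7* and *Tgfb3* were 2 of 10 genes, against 4.16% of all genes at an unadjusted p of 0.05 or less. With mean CPM over all cells of a heart in place of the mean over types, the *Smad7* difference was -0.002.

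Other genes of the pathway were counted in 4 lists. Of 98 pairs of type and gene for latency and activation, 5 were higher and 4 lower in IL-33+ hearts at an unadjusted p of 0.05 or less (9.18%, median log2 fold change 0.00). Other receptors of the superfamily, the receptors for activins and bone morphogenetic proteins among them, gave 3 higher and 1 lower of 45 (8.89%, median 0.13). SMADs, cofactors and inhibitors gave 2 higher and 3 lower of 158 (3.16%, median 0.05). Known transcriptional targets gave 20 higher and 5 lower of 211 (11.8%, median 0.07). The share over all genes and types was 4.71%, and none of these pairs passed after adjustment.

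*Klf10*, the TGF-β-inducible early gene that encodes a zinc finger repressor, gave 5 of the 20 target pairs that were higher. In Tregs it was at 198, 151 and 151 CPM in the IL-33+ hearts and 148, 56.2 and 64.2 CPM in the IL-33- hearts (log2 fold change 0.93, SE 0.38, limma adjusted p 0.923). The other 4 types were chosen after their values were seen. In NK cells *Klf10* was at 183, 185 and 169 CPM against 81.1, 39.6 and 141 CPM (1.10, SE 0.28, adjusted 0.247). NKT cells (0.92), Tcm (0.62) and Trm-like cells (1.07) had the same direction without overlap. NK cell markers were likewise higher without overlap in Tregs, NKT and Trm-like cells but overlapped in NK cells and Tcm. Monocyte and cardiomyocyte markers moved in NK cells, as given above, and in Tcm endothelial markers (46.7 to 61.4 against 12.3 to 39.5 CPM) and cardiomyocyte markers (3.24 to 14.5 against 0 CPM) were higher. The part of these markers was not tested. Over 14 types *Klf10* was higher in 10, from -1.40 to 1.10. Without IL-33- heart 6 the limma adjusted p in NK cells was 0.0444, at a fold change of 1.49. Heart 6 had the highest *Klf10* level of the IL-33- hearts in NK cells, so leaving it out widens the difference by construction.

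Other targets were lower in IL-33+ hearts. *Fn1*, which encodes fibronectin, had the lowest adjusted p of the 4 lists, in Mo-DCs, at 871, 0 and 172 CPM in IL-33+ and 124, 1025 and 1765 CPM in IL-33- hearts (log2 fold change -2.42, SE 0.60, limma adjusted p 0.0576), with overlap. The value of 0 came from 4 cells. In Mo-DCs monocyte markers were lower (430.5 to 831 against 1241 to 2216 CPM) and NK cell markers higher (386 to 703 against 104 to 195 CPM). Markers of ILC2 (83.0 to 104 against 0 to 15.6 CPM) and of Tregs (239.5 to 358 against 175 to 208 CPM) were higher too. Macrophage markers overlapped between the groups but varied widely (3536 to 5432 against 1940 to 9902 CPM). The part of these markers in the *Fn1* values was not tested. In cells annotated unconventional T cells *Fn1* was higher (log2 fold change 2.02, SE 0.57, limma adjusted p 0.703), with overlap. *Ccn2*, another target, was higher in fibroblasts (0.83, SE 0.34, limma adjusted p 0.998), with overlap. It was also higher in B cells (1.74, SE 0.78) and NKT cells (0.88, SE 0.40), both without overlap. In fibroblasts the collagen genes *Col1a1* (4751, 385 and 2156 against 2293, 8674 and 3089 CPM, fold change -1.31, SE 0.48) and *Col1a2* (5318, 892 and 3313 against 3097, 9467 and 4322 CPM, fold change -0.999, SE 0.39) had limma adjusted p-values of 0.998. Both overlapped between the groups, and their lowest and highest values came from hearts 2 and 5, with 6 and 4 fibroblasts. Endothelial-marker cells were 11.8, 33.3 and 15.9% of annotated fibroblasts in IL-33+ hearts 1, 2 and 3. In IL-33- hearts 4, 5 and 6 they were 25.8, 0 and 3.33%. No test of their part in the collagen values is given.

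Few other list genes met the rule for naming in macrophages, Tregs or fibroblasts. In macrophages *Junb*, an immediate early AP-1 gene, was at 2288, 2281 and 4317 CPM in IL-33+ hearts and 1655, 2111 and 1915 CPM in IL-33- hearts (log2 fold change 0.58, SE 0.22, limma adjusted p 0.987). *Smad5*, which serves bone morphogenetic protein receptors, was at 18.4, 9.92 and 12.9 CPM against 22.9, 52.6 and 52.7 CPM (-1.10, SE 0.45). Other cells' marker lists moved in macrophages, those of conventional DCs (252 to 366 against 18.3 to 204 CPM) and of neutrophils (339 to 541 against 580 to 2986 CPM), and their part in the *Junb*, *Smad5* and *Smad3* values was not tested. In Tregs *Acta2*, the smooth muscle actin gene, was at 0, 0 and 6.16 CPM against 35.2, 16.3 and 26.4 CPM (-1.58, SE 0.68), a low level for a gene of mural cells and myofibroblasts. In fibroblasts *Nrros*, a leukocyte gene, was at 20.6, 90.6 and 8.57 CPM against 3.99, 0 and 0 CPM (1.78, SE 0.74), the highest value coming from 6 cells. Of the marker lists, that of Tregs moved in fibroblasts, in the other direction (143 to 185 against 231 to 385 CPM), and its part was not tested. Of the other abundant list genes, the collagens *Col1a2* (4402 ± 2888 CPM) and *Col3a1* (3202 ± 1362 CPM) had their highest mean in annotated fibroblasts. So did the receptors *Bmpr2* (243 ± 141 CPM), *Eng* (82.7 ± 47.1 CPM) and *Acvrl1* (66.5 ± 23.7 CPM), that of *Acvrl1* within the spread of cDCs (58.2 ± 14.5 CPM). *Eng* is also on the list of endothelial markers, and 58 annotated fibroblasts were endothelial-marker cells. The part of those cells in the receptor levels was not tested.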

How the data were processed

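Hearts were digested, and cells were pooled after hashing with 6 antibodies (10x Genomics 3′ chemistry). Per the submitters' processing notes and the study's methods, the authors aligned reads to mm10 with Cell Ranger and used Partek Flow 10.0.23.0425 to keep cells within set ranges of depth, detected genes and mitochondrial reads, which were meant to remove doublets too. The values the authors deposited are log2(CPM + 1), with the type, graft label and hashtag of every cell. How hashtags were assigned is not given in the sources used here. In the deposited log2 matrix, 99.94% of low values (up to 20 UMIs) lay within 0.05 of a whole UMI once the logarithm was undone, so UMIs were recovered. For 18 symbols, none of them described here, they were not whole.

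For every heart and type, the mean CPM of its cells was taken, raised by 10 and put on the log2 scale, and genes with at least 10 UMIs and a UMI in at least 3 hearts were compared between groups with limma 3.58.1 in R 4.3.3 (eBayes with trend, Benjamini-Hochberg within a type, threshold 0.05). The heart was the replicate (n = 3 per group), and each heart is taken to be 1 animal. Since groups were recorded per cell, the 2 deposited samples, 1 gene expression and 1 hashtag library, are pools of all hearts. Types were ordered with two-sided exact sign-flip permutation tests over 6 hearts, which cannot give a p under 0.03125. Shares of cells were also taken after thinning to 1500 UMIs, the fewest in a cell, so no cell was left out. No further cell was removed as a doublet outside 1 alternative. Python 3.11.15 with numpy 2.4.6, pandas 2.3.3, scipy 1.17.1 and matplotlib 3.10.9 was used elsewhere. The fit was tested on simulated data.

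The genes, the lists and the comparisons were chosen with earlier results of these data known. Named besides the 10 genes are list genes past the adjusted threshold, those at an unadjusted p of 0.05 or less without overlap in macrophages, Tregs or fibroblasts, the 3 list genes with most UMIs, and the 3 genes most alike over types. Genes named outside this rule (*Ltbp2*, *Ltbp3*, *Ltbp4*, *Fbn1*, *Lrrc32*, *Nrros* in leukocytes, *Itgb8*, *Fn1*, *Ccn2*, the fold changes of *Col1a1* and *Col1a2*, and *Klf10* outside Tregs) were picked after their values were seen. Alternatives changed the pseudocount (1 and 50 CPM), the filter, the averaging, the scaling, robust eBayes, limma-voom, the cells and the hearts used.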

Additional observations from a re-analysis of the deposited data

Results flagged for a closer look

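The *Tgfbr1* fold changes had opposite signs in 2 annotated types in which the groups did not overlap. Groups did not overlap, with IL-33+ higher, in 5.10% of the 98 pairs, against 4.87% of all pairs. With IL-33+ lower the shares were 3.06% and 4.94%, so both were near or below the background. All IL-33+ hearts were above all IL-33- hearts in cDCs (log2 fold change 1.88, SE 0.54). In Tem/eff all were below them (35.2, 33.6 and 30.7 CPM against 50.4, 36.9 and 56.3 CPM). The log2 fold change there was -0.41 (SE 0.32, unadjusted limma p 0.205). The difference between the 2 types was not tested, and neither fold change passed after adjustment.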

How the results depend on the processing

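In the fits of limma with Benjamini-Hochberg adjustment, the count of gene and type pairs at an adjusted p of 0.05 or less was 0 under every alternative run, as was the count of the 10 genes in the mean of types. The exact sign-flip permutation tests of the highest against the next type also gave 0 of 10, but with 1 heart left out they cannot give a p under 0.0625, so those counts say nothing about stability. The count at an unadjusted p of 0.05 or less was 8, between 6 and 10 under the alternatives other than leaving out a heart, and from 5 (without IL-33+ heart 2) to 11 (without IL-33- heart 4) with 1 heart left out. Of the single fold changes and differences, 382 recomputed values kept direction and side of the threshold. Those that did not were *Tgfbi* in fibroblasts (-0.11 without hearts of under 10 cells), *Smad7* in the mean of types (-0.002 with mean CPM over all cells) and *Klf10* in NK cells (1.49 without IL-33- heart 6, past the threshold). The first of these loses 2 hearts by construction, and the last loses the IL-33- heart with the highest value. For *Smad7* the cause was not tested. Cells with markers of 2 lineages (1224) were left out as possible doublets in 1 alternative, but free RNA can give the same marks. Among them were 50.2% of Tregs and 78.3% of cells annotated unconventional T cells. The alternatives for Tregs (with a *Foxp3* UMI, and without cells with ILC2 markers) were chosen after seeing the data. No paired analysis was possible because hearts 1 to 3 and 4 to 6 share no number. Depth limits the rare types, in which a heart held as few as 2 cells and a gene as few as 1 UMI.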
